A study of Mus musculus with 4 samples.

Results

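CpG methylation was described in 10 genes of the Wnt pathway in the postnatal mouse colon, comprising 6 genes known as feedback inhibitors of the pathway (Rnf43, Znrf3, Axin2, Nkd1, Notum and Apcdd1) and 4 genes of its nuclear effectors (Tcf7, Lef1, Tcf7l2 and Ctnnb1). These are 10 of the 21418 autosomal protein-coding genes in the annotation used (GENCODE M1, mm9), and they were chosen by name, with earlier results of these data known. Each gene was followed in 200-bp bins from 5 kb upstream of the gene to 2 kb past its end, and a bin was tested when it held at least 2 CpGs and had at least 10 calls in each library. The 10 genes held 2358 of the 4076373 tested autosomal bins, from 44 in Notum to 654 in Tcf7l2.

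Whole-genome bisulfite sequencing reads methylated cytosines as C and unmethylated ones as T, so that the share of C calls gives the methylation level of a CpG. The 4 groups were intestinal stem cells (ISCs) and differentiated epithelial cells of the colon at P0, the day of birth, and the same cell populations at P21, around weaning. The strain was labelled C57, and the mice of all groups came from crosses of Lgr5-EGFP-CreER mice, in which EGFP and CreER are expressed from the Lgr5 locus, with C57 wild types. The reporter line had been backcrossed to C57BL/6 J. No deletion or treatment is named for any group. ISCs were sorted as Lgr5-EGFP-positive cells. Differentiated cells were sorted as EpCAM-positive and EGFP-negative, and so hold every epithelial cell in which the reporter was not seen. Each group was 1 library made from pooled animals, whole litters at P0 and reporter-positive offspring at P21, and there were no replicates. Every p-value below therefore compares 2 libraries and not the conditions, and the intervals given cover no error but that of counting, because PCR copies of a read are no independent molecules.

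Wnt ligands bind Frizzled and Lrp receptors at the cell surface and stop the destruction complex from degrading beta-catenin, which then enters the nucleus and activates genes together with TCF/LEF proteins. Several of the genes activated in this way encode inhibitors of the pathway itself, which form negative feedback. In the intestinal crypt, Wnt signals maintain the stem cells, and loss of such inhibitors is known to expand the proliferating zone.

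The libraries held between 1023427645 and 1188114423 calls each, and the median tested bin had 55 to 81 calls. The mean level of tested bins lay between 76.2% and 77.0% in all 4 libraries. Promoter levels were 6.90% or lower in all 4 libraries at the 3 ISC markers (Lgr5, Ascl2 and Smoc2) and at the 6 epithelial markers. They were between 67.1% and 89.0% at the 3 blood cell and 2 endothelial markers, between 0.248% and 8.55% at the 3 stromal markers, and between 51.4% and 55.4% at the colonocyte marker Krt20. The promoter of Slc26a3, another colonocyte marker, was at 28.2% in P0 ISCs, 24.2% in P0 differentiated cells, and 11.9% and 9.85% at P21. These levels describe the promoters only, and the part of other cell types in the values below was not tested.

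The window with the largest change with age shared by both populations is shown first for 8 of the genes, because the main differences of these genes lay in short stretches of this kind. Each is a 200-bp bin read 5' to 3' on the strand of its gene from the mm9 reference, with CpGs in capitals. They lie at chr11:108787401-108787600 in intron 2 of Axin2 (plus strand), chr11:87490801-87491000 in intron 2 of Rnf43 (plus strand), chr11:5282801-5283000 in intron 1 of Znrf3 (minus strand) and chr11:120522801-120523000 upstream of Notum (minus strand). The others lie at chr8:91090201-91090400 in intron 3 of Nkd1, chr9:120841401-120841600 upstream of the main start of Ctnnb1, chr19:55867601-55867800 in intron 3 of Tcf7l2 and chr3:130928401-130928600 downstream of Lef1, all on the plus strand.
Axin2: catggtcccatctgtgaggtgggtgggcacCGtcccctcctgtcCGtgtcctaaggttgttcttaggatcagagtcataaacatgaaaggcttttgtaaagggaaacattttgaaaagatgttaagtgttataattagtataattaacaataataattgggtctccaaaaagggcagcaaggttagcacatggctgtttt
Rnf43: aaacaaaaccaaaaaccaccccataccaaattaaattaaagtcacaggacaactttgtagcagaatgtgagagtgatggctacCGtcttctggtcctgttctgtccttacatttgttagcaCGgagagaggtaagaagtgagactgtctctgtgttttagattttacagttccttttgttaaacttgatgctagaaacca
Znrf3: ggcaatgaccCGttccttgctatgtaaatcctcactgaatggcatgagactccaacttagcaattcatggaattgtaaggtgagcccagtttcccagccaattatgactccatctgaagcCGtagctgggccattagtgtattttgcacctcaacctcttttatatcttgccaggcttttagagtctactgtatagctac
Notum: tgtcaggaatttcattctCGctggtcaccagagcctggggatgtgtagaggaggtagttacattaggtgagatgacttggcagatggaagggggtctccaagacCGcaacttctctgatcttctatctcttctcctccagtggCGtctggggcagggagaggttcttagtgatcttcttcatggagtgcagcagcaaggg
Nkd1: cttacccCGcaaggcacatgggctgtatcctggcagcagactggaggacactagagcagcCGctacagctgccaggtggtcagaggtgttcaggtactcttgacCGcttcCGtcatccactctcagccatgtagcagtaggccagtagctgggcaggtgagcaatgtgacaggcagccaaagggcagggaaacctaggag
Ctnnb1: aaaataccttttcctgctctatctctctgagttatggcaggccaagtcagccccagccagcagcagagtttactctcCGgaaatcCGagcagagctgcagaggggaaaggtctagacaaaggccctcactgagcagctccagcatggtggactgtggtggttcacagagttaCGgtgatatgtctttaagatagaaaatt
Tcf7l2: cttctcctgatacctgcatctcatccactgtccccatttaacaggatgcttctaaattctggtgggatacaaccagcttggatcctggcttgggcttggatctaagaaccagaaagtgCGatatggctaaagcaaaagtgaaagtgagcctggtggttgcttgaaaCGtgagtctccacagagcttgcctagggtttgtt
Lef1: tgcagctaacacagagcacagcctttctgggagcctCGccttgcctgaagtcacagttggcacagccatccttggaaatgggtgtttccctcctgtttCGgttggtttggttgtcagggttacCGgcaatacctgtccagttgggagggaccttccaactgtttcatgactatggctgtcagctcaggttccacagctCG

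In the Axin2 window, 30 of 36 calls were methylated in ISCs at P0 and 34 of 49 in differentiated cells at P0, against 1 of 34 and 4 of 43 at P21. The level fell by 80.4 points in ISCs (adjusted p = 6.59e-10) and by 60.1 points in differentiated cells (adjusted p = 5.66e-07) in Fisher's exact test, with both CpGs low in ISCs at P21. In the Rnf43 window, 36 of 45 and 34 of 41 calls were methylated at P0, against 0 of 36 and 3 of 44 at P21, and it held a match to the TCF/LEF core ctttgta. A count of 0 allows a share of up to 3 calls of the total, and a window of 2 CpGs rests on few molecules, so each was read together with its neighbours.

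The other windows were picked for a change called in both populations in the same direction, so their agreement is no result. All but 1 fell with age. Tcf7 and Apcdd1 have no window, and Nkd1 and Tcf7l2, shown by a loss, had more gains than losses in ISCs. The Znrf3 window fell from 78.0% in P0 ISCs and 75% in P0 differentiated cells to 10.3% and 5.13% at P21, and the Tcf7l2 window from 63.6% and 63.3% to 3.45% and 0% (0 of 29 calls). The windows of Nkd1 (76.0% and 68.9% to 24.2% and 31.6%), Ctnnb1 (66.7% and 84.3% to 17.9% and 29.9%) and Lef1 (59.6% and 54.8% to 24.0% and 24.5%) fell less far. The Notum window alone was higher at P21, from 18.5% and 25% to 79.5% and 71.4%, with 27 to 44 calls in each library. Its 3 CpGs had between 4 and 13 calls each in ISCs at P0.

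Loss of methylation with age was the main difference of the 10 genes, and most of it lay in Axin2 and Rnf43. A bin was called when its adjusted p in Fisher's exact test was below 0.05 and its level differed by more than 15 points. In ISCs, 125 of the 2358 bins (5.3%) were lower and 38 (1.61%) higher at P21, where 1.48% and 1.07% of all tested bins were called in these directions. In differentiated cells, 139 bins (5.89%) were lower and 35 (1.48%) higher, against 1.86% and 0.992% of all tested bins. With a minimum of 4 CpGs, 62 bins were lower and 36 higher in ISCs, and 64 and 25 in differentiated cells. Losses thus outnumbered gains by less at this setting. The shares of all tested bins with 4 CpGs were not computed. Axin2 and Rnf43, with 385 tested bins, held 84 of the 125 lower bins in ISCs (67.2%) and 83 of the 139 in differentiated cells (59.7%). The other 8 genes had 41 lower (2.08%) and 38 higher (1.93%) of 1973 bins in ISCs, and 56 lower (2.84%) and 32 higher (1.62%) in differentiated cells. These shares were all above those of all tested bins. Depth also differed, and more calls let the test call more bins. In P0 ISCs the median bin had 50 calls in Znrf3, 58 to 91.5 in the other genes and 55 over all tested bins. The shares were not compared at equal depth. Single genes differed in direction, with 20 of the 38 gains in ISCs in Tcf7l2 and no gain in Apcdd1 or Ctnnb1.

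Bins called in both populations moved in the same direction, with 1 exception in Lef1. Of the member bins, 82 (3.48%) were lower with age in both populations and 10 (0.424%) were higher in both, against 0.673% and 0.255% of all tested bins. The 82 shared bins were 65.6% of those lower in ISCs and 59.0% of those lower in differentiated cells, and 61 of them lay in Axin2 and Rnf43. Across the 2358 bins the changes in ISCs and in differentiated cells correlated at r = 0.65, at r = 0.47 over the 1973 bins without Axin2 and Rnf43, and at r = 0.27 over all tested bins. The points share their libraries and neighbouring bins share molecules, so these correlations are descriptions. Depth also differed between the member bins and all tested bins.

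**Figure D1:**
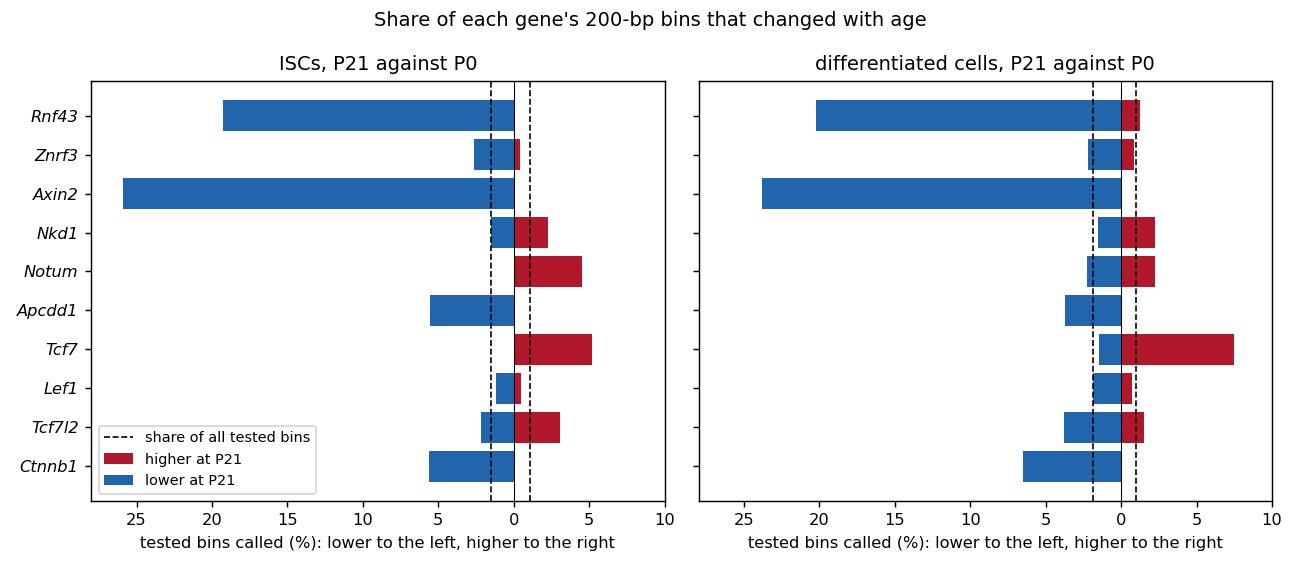
Percent of each gene's tested 200-bp bins called higher (red, to the right) or lower (blue, to the left) at P21 than at P0, in ISCs and in differentiated cells. Dashed lines mark the share of all tested bins, and the bars of Axin2 and Rnf43 reach 25.9% and 19.3% lower bins in ISCs and 23.8% and 20.2% in differentiated cells.

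Differences between the cell populations at one age were few. At P0, 12 member bins (0.509%) were higher and 6 (0.254%) lower in differentiated cells than in ISCs, against 0.288% and 0.22% of all tested bins. The 18 bins at P0 became 4 with calls thinned to the lowest library and 0 with calls divided by CpGs, so each of these differences between 2 libraries is uncertain. At P21, 2 were higher and 2 lower (0.0848% each), against 0.0711% and 0.111%. None of them was called with thinned calls or with calls divided by CpGs. The 2 higher bins at P21 were both in intron 2 of Rnf43. The change with age itself differed between the populations in 6 member bins (0.254%), against 0.552% of all tested bins, and none of the 6 lay in Axin2 or Rnf43. With bins shifted by 100 bp the count was 15, and the share of all shifted bins was not computed, so this comparison is uncertain.

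**Figure D2:**
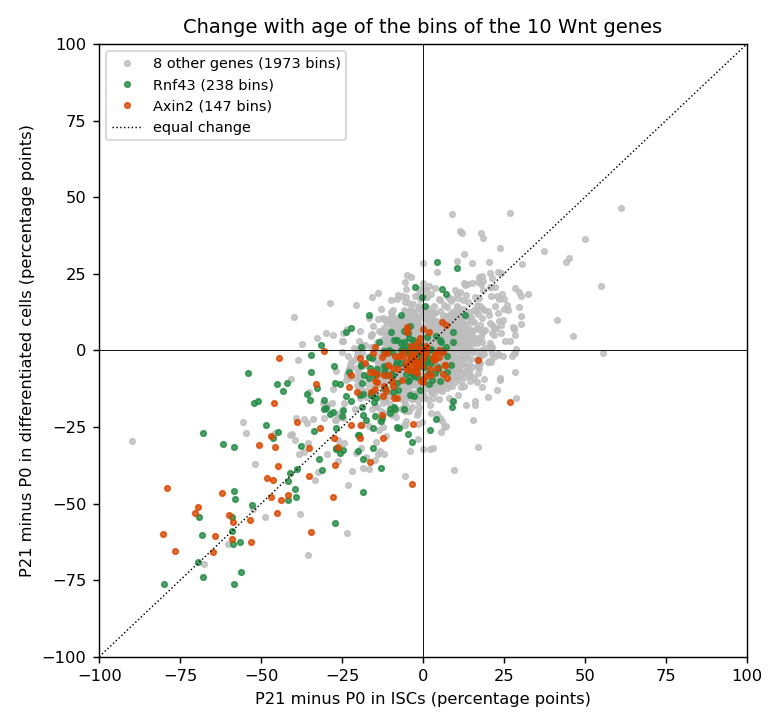
Change of each tested bin from P0 to P21, in percentage points, in ISCs (x axis) and differentiated cells (y axis), with Axin2 and Rnf43 in colour and the other 8 genes in grey. The dotted line marks equal change, and the bins of Axin2 and Rnf43 extend along it to losses of 80 points and more in ISCs.

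Promoters, within 1 kb of the main transcription start, were low in all 10 genes when their calls were pooled. Their levels lay between 0.233% and 13.2% over the 4 libraries, while the median promoter of all genes lay between 8.47% and 12.3%. The change with age was between -2.70 and 3.86 points in ISCs and between -0.945 and 1.45 points in differentiated cells, and no promoter passed the limit of 10 points used for gene regions. With the mean of bin levels in place of pooled calls, which gives bins with few calls the same weight as others, the Ctnnb1 promoter went from 15.9% to 4.36% in differentiated cells, a change of -11.5 points past that limit (no test), and from 12.6% to 6.02% in ISCs. The Axin2 promoter was then at 18.8% and 20.4% at P0 and 11.9% and 13.1% at P21, and the Notum promoter went from 2.73% to 9.24% in ISCs and from 3.43% to 8.69% in differentiated cells. With pooled calls Tcf7 had the highest promoter levels in all 4 libraries, with 9.33% in P0 ISCs and 8.33% in P0 differentiated cells, and 13.2% and 9.78% at P21. The promoter of Rnf43 was at 3.34% and 1.10% at P0 and at 1.38% and 1.74% at P21 although no CpG island, defined as 500-bp windows of at least 25 CpGs, covered its start.

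**Figure D3:**
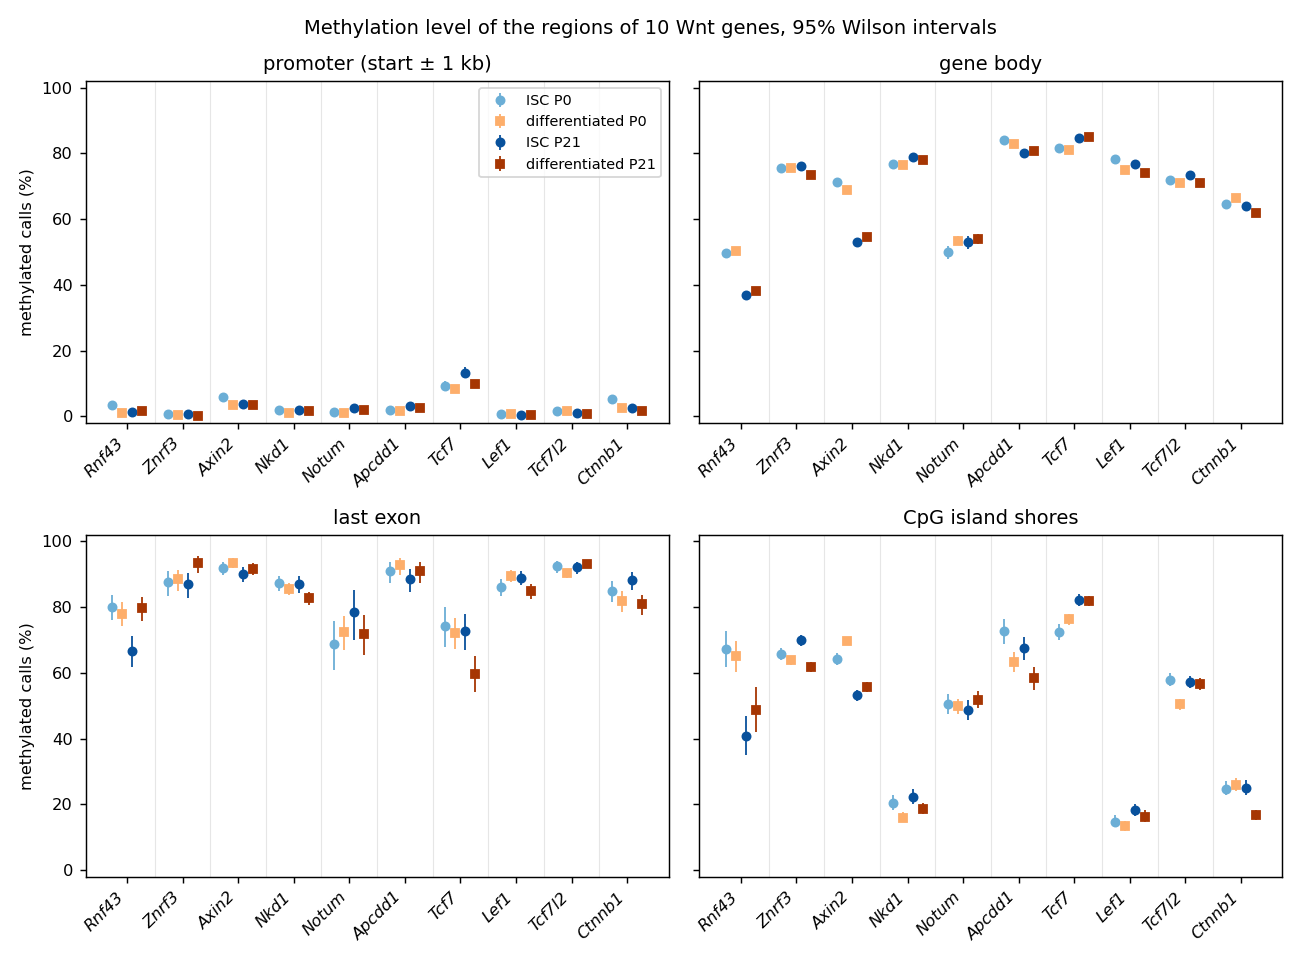
Methylated calls in percent of all calls (y axis) in the promoter, gene body, last exon and CpG island shores of each gene, with 1 point per library and 95% Wilson intervals. Promoters are at 13.2% or lower in every library, and the bodies and shores of Axin2 and Rnf43 are lower at P21 in both populations.

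Of the 40 regions tested in the 10 genes, 5 (12.5%) changed with age in ISCs, as did 5 in differentiated cells, against 5.18% and 4.74% of all gene regions. The Axin2 and Rnf43 bodies and shores were called in both populations, the Rnf43 last exon in ISCs and the Tcf7 last exon in differentiated cells. Shores were taken from the whole window and were not kept apart from the body or last exon. Regions of 1 gene can thus share bins. None differed between the populations at P0 and 2 did at P21 (5%), where 4.24% and 3.1% of all gene regions were called. With the mean of bin levels both differences at P21 were under the limit of 10 points (7.30 in the Rnf43 last exon and -8.77 in the Tcf7 last exon), as was the change of the Axin2 shores in ISCs (-9.85). The change with age differed between the populations in 1 region (2.50%), the Rnf43 last exon, against 2.85% of all gene regions. Outside Axin2 and Rnf43 the bodies differed with age by -3.82 to 2.98 points in ISCs and by -4.50 (Ctnnb1) to 3.98 points (Tcf7) in differentiated cells, all under the limit.

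Axin2, a scaffold of the destruction complex and a widely used Wnt target gene, lost methylation over the interior of the gene (chr11:108781663-108812097, plus strand, 11 exons). Its body was at 71.4% (95% interval 70.5 to 72.2) in P0 ISCs and 68.8% (68.2 to 69.4) in P0 differentiated cells, and at 52.9% (52.0 to 53.8) and 54.5% (53.8 to 55.3) at P21. It fell by 18.5 points in ISCs (exact test, adjusted p = 2.18e-180) and by 14.3 points in differentiated cells (adjusted p = 2.66e-190), and the intervals of the 2 ages did not overlap in either population. The shores of its CpG islands, within 2 kb of an island, fell from 64.1% and 69.6% to 53.1% and 55.7%. The last exon was high in all 4 libraries, at 91.9%, 93.5%, 90.1% and 91.6%.

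The losses in Axin2 were packed into the first part of the gene. Between 4 and 10 kb past the start, 24 tested bins were together at 61.7% in P0 ISCs and 60.9% in P0 differentiated cells and at 17.3% and 18% at P21, and 21 of the 24 were lower in each population. Intron 2 held 22 of the 38 bins lower in ISCs, intron 3 held 10 and exon 2 held 3. The longest run was 7 adjacent bins from 6.14 to 7.54 kb, at 80.3% and 76.7% at P0 and at 17.6% and 19.6% at P21. Over the 38 bins the median level in ISCs went from 78.2% to 12.3%, and 24 of them were under 20% at P21, where 2 had been so at P0. The 38 bins were picked by their fall in these same ISC libraries, so these values only describe them. The level of all 38 was also lower at P21 in differentiated cells, and 31 of them were called there (81.6% of the ISC bins, 88.6% of the differentiated ones).

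Further runs of Axin2 lay at 5.14 to 5.54 kb (61.2% and 69.3% at P0, 2.88% and 8.82% at P21), 7.74 to 8.94 kb (61.2% and 63.7%, then 8.74% and 14.2%) and 9.14 to 10.1 kb (87.8% and 87.2%, then 48.8% and 54.2%). Those in intron 3 were at 13.5 to 14.3 kb (64.4% and 57.9%, then 18.5% and 21.0%) and 16.1 to 16.5 kb (47.0% and 55.6%, then 9.50% and 16.7%). A run upstream of the start, from -3.06 to -2.66 kb, went from 26.3% to 2.61% in ISCs and from 36.4% to 10.7% in differentiated cells. All of these ended below their level at birth in both populations, and past 18 kb the called bins were 1 at 20.04 kb in intron 4 (98.9% to 83.5% in ISCs) and 1 downstream, at 32.0 kb, lower in differentiated cells.

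Exon 2 of Axin2 held the run in which the populations differed at birth. From 2.94 to 3.54 kb, 3 adjacent bins were at 20.9% in P0 ISCs and 49.1% in P0 differentiated cells, higher in differentiated cells by 28.3 points, and at 0.962% and 2.14% at P21. Runs of bins lower with age overlapped it, from 3.14 to 3.74 kb in ISCs (27.8% to 1.47%) and from 2.94 to 3.94 kb in differentiated cells (5 bins, 42.7% to 1.79%). The adjusted p-values of the 3 bins at P0 in Fisher's exact test were 6.39e-03, 3.71e-02 and 9.09e-05. No such difference was called between the P21 libraries. The transcript Axin2-002 starts close by, at 2.83 kb, and the bins within 500 bp of it were at 10.9% and 16.3% at P0 and 0.923% and 1.36% at P21. A further bin at 16.2 kb was at 32.6% in P0 ISCs and 53.5% in P0 differentiated cells (exact test, adjusted p = 2.80e-03) and at 4.69% and 5.57% at P21.

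**Figure D4:**
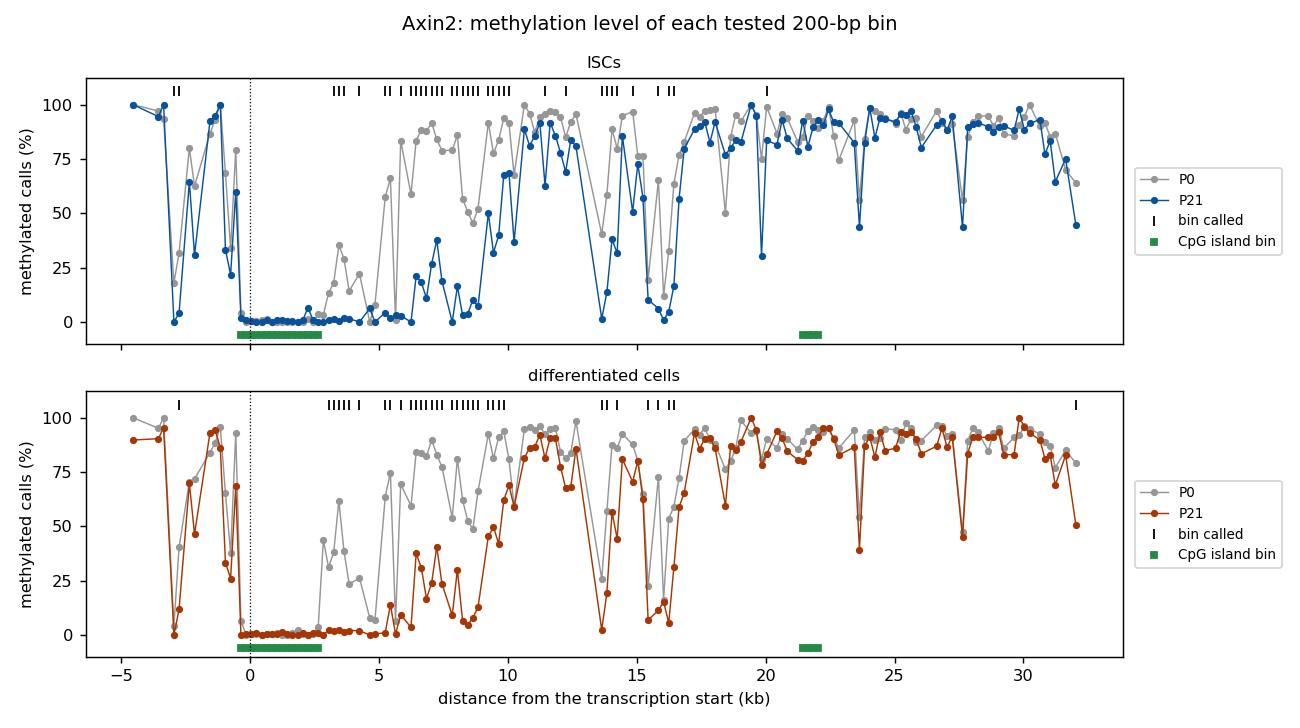
Methylation level (%) of each tested 200-bp bin of Axin2 against distance from the transcription start (kb), in ISCs (top) and differentiated cells (bottom), with P0 in grey and P21 in colour. Ticks above mark called bins and squares below mark CpG island bins, and the P21 lines lie far under the P0 lines between 4 and 10 kb.

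Rnf43, a ubiquitin ligase that removes Frizzled receptors from the cell surface, had the other large loss (chr11:87476224-87549041, plus strand, 10 exons). Its body was at 49.7% (48.9 to 50.4) in P0 ISCs and 50.2% (49.6 to 50.8) in P0 differentiated cells, and at 36.8% (36.1 to 37.5) and 38.1% (37.5 to 38.7) at P21. It fell by 12.9 points in ISCs (exact test, adjusted p = 3.46e-129) and by 12.1 points in differentiated cells (adjusted p = 1.16e-167). These levels were low for a gene body, since the median body of all genes lay between 79.7% and 80.5%. Hsf5, a heat shock factor gene, overlaps the window of Rnf43.

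Intron 2 of Rnf43 held 39 of the 46 bins lower in ISCs and 42 of the 48 lower in differentiated cells, of 149 tested bins in this intron. Between 4 and 16 kb past the start, 19 bins were together at 64.2% in P0 ISCs and 66.1% in P0 differentiated cells and at 4.41% and 7.5% at P21, with 15 of them lower in ISCs and 18 in differentiated cells. The longest run, 5 bins from 14.2 to 15.2 kb, was at 66.1% and 66.4% at P0 and 2.21% and 4.21% at P21, and included the window printed above. Over the 46 bins the median in ISCs went from 67.7% to 11.9%, and 27 were under 20% at P21 against 2 at P0. These bins too were picked by their fall in the same ISC libraries. In differentiated cells 30 of the 46 were called too, which is 65.2% of the ISC bins and 62.5% of the differentiated ones.

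Runs at 11.4 to 11.8 kb (62.0% and 64.1%, then 8.42% and 9.22%), 12.2 to 12.8 kb (70.6% and 66.8%, then 5.34% and 11.9%) and 15.6 to 16.2 kb (67.7% and 78.2%, then 10.3% and 18.6%) framed the longest one. A run of intermediate level at 18.8 to 19.6 kb went from 28.2% and 28.7% to 2.23% and 3.78%. The stretches at 26 to 28 kb and 46 to 48 kb were almost unmethylated in all libraries, at 2.69% or lower. The stretch at 50 to 56 kb was methylated in all libraries, at 88.5%, 86.8%, 86.3% and 85.1%. Losses thus alternated with low and with stably methylated parts along the gene. Outside the promoter, 62 of 229 bins of Rnf43 were under 20% in ISCs at P0 and 97 at P21, and 54 and 94 in differentiated cells. Another coding start of Rnf43 (Rnf43-002, at 36.8 kb) was at 17.8% and 11.7% at P0 and 4.71% and 5.28% at P21, with 4 bins within 500 bp of it.

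Runs further into Rnf43 were short, with 2 or 3 bins each. Those called in ISCs were at 21.8 to 22.2 kb (90.1% to 49.6%), 24.6 to 25 kb (36.7% to 5.59%), 34.8 to 35.2 kb (48.6% to 18.1%), 38.0 to 38.4 kb (50.6% to 15.7%), 43.4 to 43.8 kb (79.4% to 41.0%) and 60.8 to 61.2 kb (94.0% to 44.4%). In differentiated cells runs were called at 35.8 to 36.2 kb (71.6% to 31.0%), 38.0 to 38.4 kb (37.0% to 12.3%), 41.6 to 42.2 kb (32.0% to 10.6%) and 61.0 to 61.4 kb (75.7% to 48.6%). The 3 gains of Rnf43 were single bins in differentiated cells, upstream and in introns 2 and 3.

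The last exon of Rnf43, with its calls pooled, was called in ISCs and not in differentiated cells. It was at 80.2% (75.9 to 83.8) in P0 ISCs and 78.0% (74.2 to 81.4) in P0 differentiated cells, and at 66.8% (61.8 to 71.3) and 79.7% (75.7 to 83.2) at P21. It fell by 13.4 points in ISCs (exact test, adjusted p = 3.19e-04) and was 1.66 points higher at P21 in differentiated cells (adjusted p = 7.49e-01), where the mean of bin levels gave -3.07 points. Of its bins, the one at 72.1 kb was lower in both populations (72.8% to 40.6% in ISCs, 84.2% to 48.7% in differentiated cells). The 2 changes differed by -15.1 points, past the threshold of the test on the arcsine scale. At P21 the last exon was 12.9 points higher in differentiated cells (exact test, adjusted p = 3.29e-04), on 4 tested bins and 373 to 505 calls. The mean of bin levels gave 7.30 points, under the limit, and -10.3 points for the difference of the changes. The shores at the 3' end, 5 bins around an island, fell in both populations, by 26.6 points in ISCs (exact test, adjusted p = 2.75e-08) and by 16.4 points in differentiated cells (adjusted p = 1.08e-03). These shores can share bins with the last exon.

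Within intron 2 of Rnf43, the bin at 21.5 kb was at 82.4% in P0 ISCs and 86.2% in P0 differentiated cells, and at 30.1% and 69.0% at P21 (exact test, adjusted p = 1.30e-02 between the P21 libraries). The bin at 24.9 kb was at 44.6% and 66.7% at P0 and at 5.56% and 27.9% at P21 (exact test, adjusted p = 3.70e-02). Both were lower in ISCs at P21. At P0, 2 bins were higher in differentiated cells, 1 at 41.1 kb in intron 2, at 6.15% in ISCs against 30.6% (exact test, adjusted p = 3.15e-02), and 1 at 57.9 kb in intron 3, at 4.27% against 23.4% (adjusted p = 2.20e-04).

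**Figure D5:**
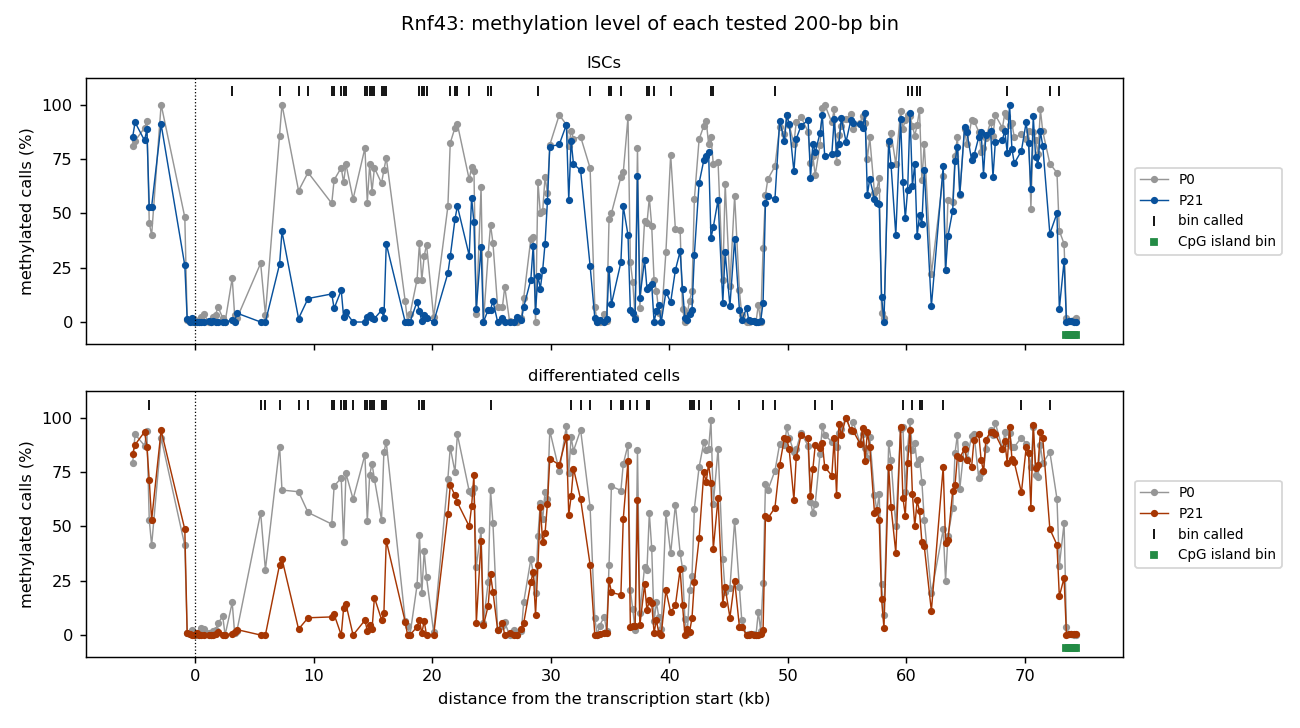
Methylation level (%) of each tested 200-bp bin of Rnf43 against distance from the transcription start (kb), in ISCs (top) and differentiated cells (bottom), drawn as for Axin2. The P21 lines lie far under the P0 lines over most of the stretch between 4 and 16 kb, and both ages are low at 26 to 28 kb and 46 to 48 kb and high at 50 to 56 kb.

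The counts of lower bins in Axin2 and Rnf43 were high among genes. Of the 13791 genes with at least 40 tested bins, 19 had a share of ISC-lower bins at or above that of Axin2 (25.9%) and 34 one at or above that of Rnf43 (19.3%), both counts including the gene itself. In differentiated cells these numbers were 25 and 45. The genes were chosen with earlier results of these data known, so these ranks are descriptions. The median gene had 1.14% and the 99th percentile was 11.1% in ISCs. By class, 33 of the 95 Axin2 bins away from islands and their shores were lower in ISCs (34.7%), 5 of its 32 shore bins (15.6%) and 0 of its 20 island bins.

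Znrf3, the paralog of Rnf43 with the same role at Frizzled receptors (chr11:5176327-5344850, minus strand), had no called promoter, body, last exon or shores. Of 227 bins, 6 were lower (2.64%) and 1 higher (0.441%) in ISCs, and 5 lower (2.2%) and 2 higher (0.881%) in differentiated cells. The shares of all tested bins were 1.48% and 1.07% in ISCs and 1.86% and 0.992% in differentiated cells. Its body stayed at 75.5% and 75.4% at P0 and 76.3% and 73.5% at P21. The bin at 118 kb in intron 2 was the gain, from 25% to 80.0% in ISCs (exact test, adjusted p = 1.27e-03) on 20 and 65 calls. In differentiated cells the bin at 51.0 kb had the larger of the gains (43.4% to 76.9%). At P21 the bin at 63.4 kb in intron 1 was at 43.4% in ISCs and 14.7% in differentiated cells (exact test, adjusted p = 8.00e-04). This bin lies within 500 bp of the start of the transcript Znrf3-002 (63.1 kb). The shores of Znrf3 were at 69.9% and 61.7% at P21, a difference of -8.20 points under the limit of 10 points, and 0.0680 points with the mean of bin levels.

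Nkd1, a cytoplasmic inhibitor that binds Dishevelled proteins (chr8:91045243-91118786, plus strand), had 6 bins higher (2.26%) and 4 lower (1.51%) of 265 in each population. Of all tested bins, 1.07% were higher and 1.48% lower in ISCs, and 0.992% and 1.86% in differentiated cells. The share of lower bins was thus near that of all tested bins. A run of 3 bins in intron 3, from 24.8 to 25.4 kb, was at 28.7% in P0 ISCs and 52.3% in P0 differentiated cells and at 72.2% and 63.9% at P21. It rose by 43.5 points in ISCs, and 2 of its bins were higher in differentiated cells at P0 by 26 points together. In these 2 bins the change with age differed between the populations, by 31.6 points at 25.1 kb and 56.6 points at 25.3 kb. The most negative change was that of the window printed above, at 45.1 kb, which fell by 51.8 points in ISCs (exact test, adjusted p = 6.64e-09) and by 37.2 points in differentiated cells (adjusted p = 1.89e-08). At 10.3 kb differentiated cells went from 50% to 10.4% (exact test, adjusted p = 2.69e-05).

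Notum, a secreted enzyme that removes the lipid from Wnt ligands (chr11:120515102-120522489, minus strand), had 2 higher bins of 44 (4.55%) in ISCs and none lower. These were the window at -0.98 kb, at the upstream edge of the promoter, which rose by 61.0 points in ISCs (exact test, adjusted p = 8.68e-05) and by 46.4 points in differentiated cells (adjusted p = 1.44e-02), and a CpG island bin in exon 2 (25.9% to 48.9% in ISCs). The upstream bin at -3.18 kb was lower in differentiated cells, from 34.3% to 5.56% (exact test, adjusted p = 5.74e-03). Its body was near 50% throughout, at 49.9%, 53.4%, 52.9% and 54.0%.

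Apcdd1, a membrane protein that inhibits Wnt signalling at the cell surface, lost methylation in 6 of its 108 bins (5.56%) in ISCs and 4 (3.7%) in differentiated cells and gained none. A run of 3 bins at 2.62 to 3.22 kb in intron 1 was at 51.2% in P0 ISCs and 43.3% in P0 differentiated cells and at 22.4% and 23.5% at P21. A run at 26 to 26.4 kb in intron 3 went from 84.2% to 50% in ISCs, and the adjoining run at 25.8 to 26.2 kb from 81.0% to 53.6% in differentiated cells. Its body was the most methylated of the feedback genes at P0, at 84% and 82.9%.

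Among the effectors, Tcf7, which encodes a TCF factor best known in T cells (chr11:52065873-52096681, minus strand), had more higher than lower bins. Of 134 bins, 7 were higher and none lower in ISCs, and 10 higher and 2 lower in differentiated cells. A run just upstream of the promoter window, from -1.72 to -1.32 kb, was at 36.0% in P0 ISCs and 29.9% in P0 differentiated cells and at 60.9% and 54.7% at P21. A run at 17.3 to 17.7 kb in intron 3 went from 42.5% and 47.5% to 68.3% and 67%. Both runs rose in ISCs, and in differentiated cells their levels at P21 also lay above those at P0. The shares of higher bins, 5.22% and 7.46%, were reached or passed by 482 and 288 of the 13791 genes. In differentiated cells the largest difference was a loss in exon 7, at 25.6 kb, from 70.7% to 36.8% (exact test, adjusted p = 2.02e-04), where ISCs went from 71.7% to 33.3% on 46 and 27 calls and were not called. The largest gain there was at -1.62 kb, in the run upstream, from 45.6% to 74.5%. The bin at 6.78 kb in intron 3 differed at P0, with 96.6% in ISCs and 78.2% in differentiated cells (exact test, adjusted p = 2.27e-02). The last exon of Tcf7 was at 74.4%, 72.1% and 72.7% in the first 3 libraries and at 59.7% in differentiated cells at P21, with 1 bin at 30 kb called (66.8% to 48.4% in differentiated cells). It fell by 12.4 points with age in differentiated cells (exact test, adjusted p = 5.85e-03), while the difference between the changes in the populations missed the threshold of its test.

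Lef1, a TCF/LEF factor of progenitor cells (chr3:130813389-130927274, plus strand), had the smallest shares of called bins among the effectors, with 2 higher and 5 lower of 434 bins in ISCs and 3 higher and 8 lower in differentiated cells. These shares were 0.461% and 1.15% in ISCs and 0.691% and 1.84% in differentiated cells. Of all tested bins, 1.07% and 1.48% were called in ISCs and 0.992% and 1.86% in differentiated cells. The shares of Lef1 were thus near or below these, on few bins. The downstream window printed above was the 1 bin lower in both populations. The bin at 92.3 kb in intron 9 fell by 40.8 points in ISCs (exact test, adjusted p = 1.83e-04), and the bin at 97.7 kb in intron 11 fell by 42.5 points in differentiated cells (adjusted p = 2.30e-02). The bin at 80.7 kb, in exon 6, moved in opposite directions, from 53.1% to 73.2% in ISCs and from 71.1% to 55.8% in differentiated cells, a difference of 35.4 points that passed the test of the difference. It was the one member bin called in both populations with opposite signs. At 41.5 kb the changes also differed, by -27.9 points. At P0 the bin at 29.3 kb was at 90.2% in ISCs and 62.1% in differentiated cells (exact test, adjusted p = 1.36e-03), and at P21 a bin in exon 12 was at 100% (17 of 17 calls) and 44.8% of 29 calls (adjusted p = 4.10e-02).

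Tcf7l2, the main TCF factor of the intestinal epithelium (chr19:55816300-56008144, plus strand), had 20 bins higher (3.06%) and 14 lower (2.14%) of 654 in ISCs, and 10 higher (1.53%) and 25 lower (3.82%) in differentiated cells. Intron 4 held 12 of the 20 gains in ISCs and 276 of the 654 tested bins, and intron 3 held 6 gains and 256 bins. Runs that rose in ISCs were at 8.30 to 8.70 kb (61.8% to 84.9%), 72.9 to 73.3 kb (48.6% to 80.3%) and 85.9 to 86.3 kb (31.3% to 55%). In differentiated cells the run at 8.10 to 8.70 kb rose from 59.1% to 81.1%. The levels of these runs in the other population were also above those at P0.

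Losses of Tcf7l2 were single bins and short runs. The run at 53.1 to 53.5 kb was at 72.0% in P0 ISCs and 26.1% in P0 differentiated cells and at 3.12% and 0% at P21, but its bins had 10 and 15 calls in ISCs at P0. In differentiated cells, runs at 39.3 to 39.7 kb (77.6% to 40.9%), 45.7 to 46.1 kb (67% to 39.7%) and 139 kb (64.8% to 24.0%) were lower. The bin at 139 kb with most calls went from 59.7% and 55.1% to 7.19% and 3.36%. The change with age differed between the populations at 42.4 kb by -17.6 points and at 149.8 kb by 48.3 points. At P0 the bin at 11 kb was at 88.0% in ISCs and 37.5% in differentiated cells, on 50 and 16 calls (exact test, adjusted p = 3.49e-02), and the bin at 32.0 kb was at 48.1% and 87.5% (adjusted p = 3.05e-03).

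Ctnnb1, which encodes beta-catenin itself (chr9:120838334-120869625, plus strand), lost methylation in 6 of 107 bins (5.61%) in ISCs and 7 (6.54%) in differentiated cells and gained none. A run of 3 bins at the upstream edge of its promoter window, from -1.12 to -0.518 kb, was at 40.6% in P0 ISCs and 68.2% in P0 differentiated cells and at 8.71% and 16.5% at P21. It lies between the main start and another annotated coding start at -4.18 kb, near which all 4 libraries were between 89.2% and 91.5%. In ISCs the run fell by 31.8 points, and in differentiated cells, which began at the higher level, it fell by 51.7 points. No bin of the run was called between the populations at P0 or for a difference of the changes with age. The shores of Ctnnb1 were at 24.8%, 25.9% and 25.1% in the first 3 libraries and at 16.7% in differentiated cells at P21. The change with age there was -9.22 points, under the limit of 10. With the mean of bin levels it was -13.3 points, past the limit (no test), and in ISCs -7.68 points where pooled calls gave 0.283. At P0 1 bin differed between the populations, at -5.82 kb, with 58.2% in ISCs and 34.1% in differentiated cells. Ulk4 overlaps the window of Ctnnb1.

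Signs were compared between strands for called bins with at least 5 calls on each strand in both libraries. They were the same on both strands in 113 of 118 such bins in ISCs and in 100 of 109 in differentiated cells. Of the 9 exceptions in differentiated cells, 6 were in Tcf7l2, where 12 of 18 bins had the same sign on both strands, and 2 in Lef1 (6 of 8), so the differentiated-cell calls of Tcf7l2 are the least certain by this measure. CpGs on a read are not independent, and when the calls of each bin were divided by its number of CpGs, an alternative chosen after seeing the data, 19 member bins were called in ISCs and 27 in differentiated cells. All of them were losses, with Rnf43 at 12 and Axin2 at 6 bins in ISCs, and Axin2 at 13 and Rnf43 at 10 in differentiated cells, so no gain described above passes this count. The losses of Nkd1, Apcdd1 and Lef1 in both populations, those of Tcf7l2 and Ctnnb1 in ISCs and those of Notum and Tcf7 in differentiated cells did not pass it either. The division takes most calls from bins with many CpGs, so it cannot rank gains against losses. With a minimum of 4 CpGs, 36 higher bins were still called in ISCs and 25 in differentiated cells.

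The TCF/LEF core (CTTTGAA or CTTTGAT or CTTTGTA or CTTTGTT, on either strand) was present in 8 of the 10 member promoters and in 74.1% of all promoters of the same length. It was absent from those of Apcdd1 and Ctnnb1 and most frequent in that of Axin2, with 4 matches. Of the 244 member bins called with age, 50 (20.5%) held a core, against 15.8% of all member bins and 15.9% of all tested bins. In Axin2 and Rnf43, which held most of the lower bins, 19.0% and 18.5% of all tested bins held a core. Of their bins lower in ISCs, 9 of 38 (23.7%) and 12 of 46 (26.1%) held one. No test was run on these shares.

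In 62 other genes of the pathway, with 8575 tested bins, 180 (2.10%) were lower and 154 (1.80%) higher with age in ISCs, and 274 (3.20%) and 138 (1.61%) in differentiated cells. Of all tested bins, 1.48% were lower and 1.07% higher in ISCs, and 1.86% and 0.992% in differentiated cells. The 11 other target genes had 81 lower bins in ISCs (4.43%) and 126 in differentiated cells (6.89%), the highest shares of the 6 lists by role. Most of these bins lay in Ephb3 and Ephb2, which had 34 and 48 lower bins in differentiated cells. Lgr5 counts among the receptors too. The single genes with the largest numbers of lower bins in ISCs were Ephb3 and Ephb2, guidance receptors of the crypt, with 26 (29.9% of its 87 bins) and 24 bins (3.36% of 715), followed by Lgr5 (4.3%) and Lrp5 (4.73%) with 15 each. Those with the largest numbers of higher bins were the repressor Tcf7l1 (28, or 4.86% of 576) and the R-spondin receptors Lgr4 (3.98%) and Lgr5 (2.58%) with 9 each. The genes differ in their number of tested bins, and 9 genes with 32 to 62 tested bins had a larger share of higher bins than Tcf7l1, up to 15.8% in Sp5, as Myc (8.7%) had a larger share of lower bins than Ephb2, Lgr5 and Lrp5. Sp5 and Myc were named after their values were seen. Among promoters, that of Apc was at 17.3% in P0 ISCs and 6.19% in P0 differentiated cells, and at 20.2% and 8.50% at P21. Those of Cd44 (28.3% and 16.5%) and Lrp5 (20.1% and 8.38%) differed at P0, and that of Sfrp4 was higher with age in differentiated cells (15.4% to 25.5%). Of all gene regions, 4.24% were called at P0 and 4.74% with age in differentiated cells. The median promoter of all genes at P0 was also lower in differentiated cells (8.47%) than in ISCs (12.3%). The mean of bin levels was not compared for these genes. At the member promoters at P0 it reversed this direction in Axin2, Ctnnb1, Tcf7, Apcdd1 and Notum. It kept the direction in Rnf43, Znrf3, Nkd1 and Tcf7l2.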

How the data were processed

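Genomic DNA of sorted colonic ISCs and differentiated epithelial cells at P0 and P21 (1 library each) was converted with bisulfite and sequenced. The authors mapped the reads to mm9 with Bismark and Bowtie and deposited, for each CpG cytosine, a count of calls, a count of methylated calls and the methylated fraction. Levels were recomputed from the counts, and the deposited fraction was not used. The sources used here name neither tool versions nor any removal of duplicates, and remaining duplicates would make the tests call too many bins.

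Both strands of a CpG were summed over 200-bp bins with Python 3.11.15 and numpy 2.4.6, and 82.5% of the 4938585 autosomal bins with 2 or more CpGs had at least 10 calls in all 4 libraries. Two-sided Fisher's exact tests, in custom code with numba 0.67.0 and scipy 1.17.1, were adjusted by Benjamini-Hochberg. They ran over all tested bins (15-point limit) or over all 69934 gene regions (10-point limit). The difference between the changes with age of the populations was tested on the arcsine scale, with the Anscombe form of the transform and its variance in place of the plain one first planned. Intervals are 95% Wilson intervals. The procedure was tested on simulated data. The simulated calls were independent, so they cannot show false calls from duplicates, linked CpGs on a read or spread between animals.

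The members, lists and named items were chosen with earlier results of these data known. Every run of adjacent called bins was named, overlapping runs of both populations mostly as 1 stretch, otherwise the called bin with the largest difference of each gene and comparison. Other bins, such as those at other transcript starts, were named after their values were seen. For the 62 other pathway genes, those with the most gains or losses in ISCs and those with a called promoter were named. The alternatives varied the minimum of calls and CpGs, the limits on differences and calls, the bin start, depth, promoter width, island definition and the averaging.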

Additional observations from a re-analysis of the deposited data

Results flagged for a closer look

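In 6 bins and 1 region of the 10 genes the change with age in ISCs minus that in differentiated cells passed its own test. In the adjacent Nkd1 bins at 25.1 and 25.3 kb in intron 3 the difference was 31.6 and 56.6 points, with ISCs rising from 26.2% to 67.6% and from 34.3% to 90%. In Lef1 it was -27.9 points at 41.5 kb in intron 3, where differentiated cells went from 75.7% to 98.0%, and 35.4 points at 80.7 kb in exon 6, where the populations moved in opposite directions. In Tcf7l2 it was -17.6 points at 42.4 kb in intron 3 and 48.3 points at 149.8 kb in intron 4, the last on 18 to 53 calls in each library. In the last exon of Rnf43 it was -15.1 points, and -10.3 points with the mean of bin levels. All rest on 1 library a group, and the part of pooling or cell makeup in them was not tested.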

How the results depend on the processing

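With the mean of bin levels, 40 of 160 level differences of regions changed sign, 0 of them called, 3 called ones came under the limit of 10 points and 2 others, in the Ctnnb1 promoter and shores, passed it. Of the counts recomputed under each alternative, 33 stayed within 1.5 times the reported count and 23 did not. Bins called with age in ISCs, 163 as reported, were 98 with a minimum of 4 CpGs, 100 above 30 points, 408 above 15 points without a test and 19 with calls divided by CpGs. In differentiated cells, 174 as reported, they were 89, 86, 347 and 27 under the same settings and 104 with calls thinned to the lowest library. Between populations at P0, 18 bins became 3 above 30 points, 208 without a test, 4 after thinning and 0 with calls divided by CpGs. At P21, 4 bins became 2, 175, 0 and 0. Called regions with a limit of 15 points fell from 5 to 2 in ISCs, from 5 to 1 in differentiated cells and from 2 to 0 between populations at P21, which was also 0 with the mean of bin levels. Islands called from sequence gave 2 regions at P0 in place of 0. Bins shifted by 100 bp gave 15 in place of 6 bins whose changes differed between populations. A further 49 of the region differences moved beyond the counting interval with the mean of bin levels. Division by CpGs, and the mean of bin levels for the difference of the changes, were chosen after seeing the data.

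With 1 library per group, the spread between animals is unknown. No paired analysis was possible because the groups of each comparison held 1 library each. A fit of age over all 4 libraries with the populations as blocks, a different comparison, was possible and was not run. Fisher's test treats calls as independent molecules, which CpGs on a read and possible duplicates are not. Single bins with few calls, such as those of Tcf7l2 at 53.2 and 53.4 kb, are the least certain values. Differences of less than 15 points in a bin are never called. The sort of differentiated cells can hold ISCs in which the reporter is silent, and a mixture of cells cannot be told apart from intermediate methylation within cells.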
